A study of Mus musculus with 6 samples.

Results

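The genes of the cytosolic ribosome were compared between 2 kinds of ID8-KMF cells. This mouse ovarian cancer line (strain C57Bl6/J) descends from ID8 cells that had been passaged in vivo. Members were chosen by name: protein-coding genes with a symbol of Rpl or Rps and a number, Rplp0 to Rplp2 and Rpsa, without the Rps6k kinases and without genes named as pseudogenes. The rule found 86 genes among the 35275 gene identifiers of the deposited table, 22 of them on chromosomes 7 and 9 (14 and 8) and 64 on other chromosomes. No expression value entered the rule, but the division by chromosome was chosen with earlier results of these data known. Of the 86 genes, 83 had a mean of at least 0.5 FPKM (fragments per kilobase of transcript, scaled to the depth of the library) and were tested. The other three were Rpl3l at 0.0382 FPKM and Rpl10l and Rpl39l, listed at 0 in all libraries. One gene that the rule takes in, Rps19bp1, encodes a protein that binds Rps19 and is not itself a part of the ribosome.

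All 6 libraries came from cells whose Rgnef gene had been knocked out (Rgnef-/-). The 3 GFP-Rgnef libraries came from knockout cells that re-expressed Rgnef with a GFP tag from a lentivirus, and the 3 knockout libraries from cells without it. Rgnef is the guanine nucleotide exchange factor encoded by Arhgef28. Both kinds of cells were grown subconfluent in dishes seeded with Matrigel, and poly-T selected RNA was sequenced. Rgnef, its tag and the virus were present together or not at all, so their effects cannot be told apart. Neither unedited cells nor a statement on clonality were given in the sources used here. Nothing shows that a group's 3 libraries were grown separately, so p-values rest on a spread that may be technical.

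The ribosome of the cytosol consists of a small (40S) subunit, which binds the messenger RNA and decodes it, and a large (60S) subunit, which joins the amino acids. Each subunit holds 1 copy of nearly all of its proteins, which are encoded by genes scattered over the genome, and the P proteins of the stalk (Rplp1 and Rplp2) are an exception. Cells make them in matched amounts and degrade those left unassembled. Most of their messenger RNAs start with a run of pyrimidines, the 5′ terminal oligopyrimidine (TOP) motif, through which the kinase mTOR and the RNA-binding protein Larp1 control their translation. Growing cancer cells carry these messenger RNAs at high levels.

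Depths ranged from 15898965 to 17977069 reads. Arhgef28 stood at 57.2, 50.9 and 50.02 FPKM in the GFP-Rgnef libraries and 0.116, 0.110 and 0.134 FPKM in the knockout libraries, so that every library matched its label (fitted difference -5.58, SE 0.0893, limma adjusted p = 3.02e-08). These reads include those of the construct. Of 12 epithelial and ovarian surface or mesothelial markers looked at, 7 had a mean high enough to be tested. Among them, Krt8, Krt18, Wt1 and Msln stood between 124 and 342 FPKM in all libraries, whereas Epcam, not tested, did not exceed 0.339 FPKM. Krt18 fell and stood at 332, 342 and 286 FPKM in the GFP-Rgnef libraries and 230.4, 214 and 229 FPKM in the knockout libraries (difference -0.51, SE 0.0795, limma adjusted p = 0.00625). The 10 leukocyte and macrophage markers summed to 3.60 to 3.98 FPKM with GFP-Rgnef and to 3.20 to 5.39 FPKM without it, with Adgre1 and Cd3e listed at 0. The 8 fibroblast markers summed to 53.3 to 73.3 FPKM with GFP-Rgnef and to 42.1 to 50.8 FPKM without it, with no overlap, and of the 5 tested Dcn was called lower (difference -0.83, SE 0.220, limma adjusted p = 0.0426). The 6 endothelial markers summed to 95.8 to 108 FPKM with GFP-Rgnef and to 85.9 to 146 FPKM without it, and the 1 tested was not called. Nearly all of this sum came from that 1 gene, since the others had means below 0.5 FPKM, with Kdr listed at 0. The 7 erythroid and platelet markers summed to at most 1.08 FPKM in any library. Whether these markers have a part in the differences of the members was not tested. The libraries numbered 3 stood apart from those numbered 1 and 2 in both groups, on the second principal component, with 25.2% of the variance.

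The start sites of 9 ribosomal protein genes are printed as examples, and not every called member is among these genes. They are taken from the RefSeq promoter windows of GRCm38.p6 (250 bases before the start of the gene to 50 after it), read in the direction of the gene, from 45 bases before the start to 15 after it. Capitals mark the longest run of C or T within 25 bases of the start, which in Rpl27a goes on past the printed bases. In Rpl4 and Rps15a the run begins at positions -18 and -15 and ends before the start. It therefore lies outside the transcript as annotated, and a marked run need not be a TOP motif. Rpl4, Rps15a, Rpl27a and Rpl28 were called higher in the knockout libraries, Rpl35 and Rpl12 were called lower, and Rpl36a is the member on chromosome X with the largest difference.
Rpl4, chr9:64173342-64173401, plus strand: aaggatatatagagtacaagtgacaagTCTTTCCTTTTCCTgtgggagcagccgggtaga
Rps15a, chr7:118116133-118116192, minus strand: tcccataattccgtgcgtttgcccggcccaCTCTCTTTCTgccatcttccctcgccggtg
Rpl27a, chr7:109519150-109519209, plus strand: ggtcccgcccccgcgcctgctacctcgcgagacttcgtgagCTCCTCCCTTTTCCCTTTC
Rpl28, chr7:4792920-4792979, plus strand: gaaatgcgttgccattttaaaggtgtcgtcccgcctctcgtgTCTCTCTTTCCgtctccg
Rpl35, chr2:39005117-39005176, minus strand: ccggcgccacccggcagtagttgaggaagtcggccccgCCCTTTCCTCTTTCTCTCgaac
Rpl12, chr2:32961667-32961726, plus strand: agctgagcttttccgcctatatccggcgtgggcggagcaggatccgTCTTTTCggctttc
Rpl36a, chrX:134585609-134585668, plus strand: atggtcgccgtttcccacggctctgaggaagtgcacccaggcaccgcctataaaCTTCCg
In the pair Rps27 and Rps27rt, capitals instead mark the shown part of the longest stretch that both windows have in common, which is 38 bases long and begins at position 2 of Rps27 and position 1 of Rps27rt, counted from the start of the gene.
Rps27, chr3:90213634-90213693, minus strand: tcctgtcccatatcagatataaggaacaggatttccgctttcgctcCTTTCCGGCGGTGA
Rps27rt, chr9:114982725-114982784, minus strand: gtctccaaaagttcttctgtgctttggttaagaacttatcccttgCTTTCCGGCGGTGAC
The longest run was 20 bases in Rpl27a and 18 bases in Rpl35, a pair whose differences had opposite signs. In Rpl12 it was 7 bases and in Rpl36a 5 bases. The letters upstream of the shared stretch differ between Rps27 and Rps27rt.

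A window was found for 66 of the 86 members. A run of at least 8 C or T bases within 25 bases of the start was found in 30 of the 66 windows (45.5%), against 19.4% of the 27025 windows of all genes. CTTTCC and CTTTTC, short words of C and T, were looked for in the whole window and not only near the start. In the direction of the gene, either word stood in 51.5% of the members' windows and 23.2% of all windows. In the other direction the shares were 27.3% and 23.9%. CCGGAAG, a core of ETS factor sites, was found on either strand in 37.9% of the members' windows and 9.12% of all windows, GGGCGG, the core of GC boxes, in 60.6% and 35.9%, and TATAAA in 9.09% and 14.2%. The run was found in 11 of 17 windows of members on chromosomes 7 and 9 and in 19 of 49 windows of members elsewhere. These are matches of letters in a window and not measured sites, and some of the motifs overlap one another.

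Ribosomal protein RNA differed between the groups by chromosome. With the difference given as knockout minus GFP-Rgnef on the log2(FPKM + 1) scale, 20 of the 22 members on chromosomes 7 and 9 lay above 0, with a median of 0.22, or 16.6% higher. Of the 61 tested members elsewhere, 58 lay below 0, with a median of -0.13, a change of -8.44%. Among all tested genes, 89.0% of those on chromosomes 7 and 9 lay above 0, with a median of 0.27, and 59.3% of those elsewhere lay below 0, with a median of -0.04. The members on chromosomes 7 and 9 thus differed by about as much as their chromosomes did, and the members elsewhere were more often below 0 than other genes there. FPKM values are relative to the whole library, and the median difference of all 11500 tested genes was -0.02. In a bulk sample, a change in the number of cells of a type cannot be told apart from a change in RNA per cell.

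**Figure D1:**
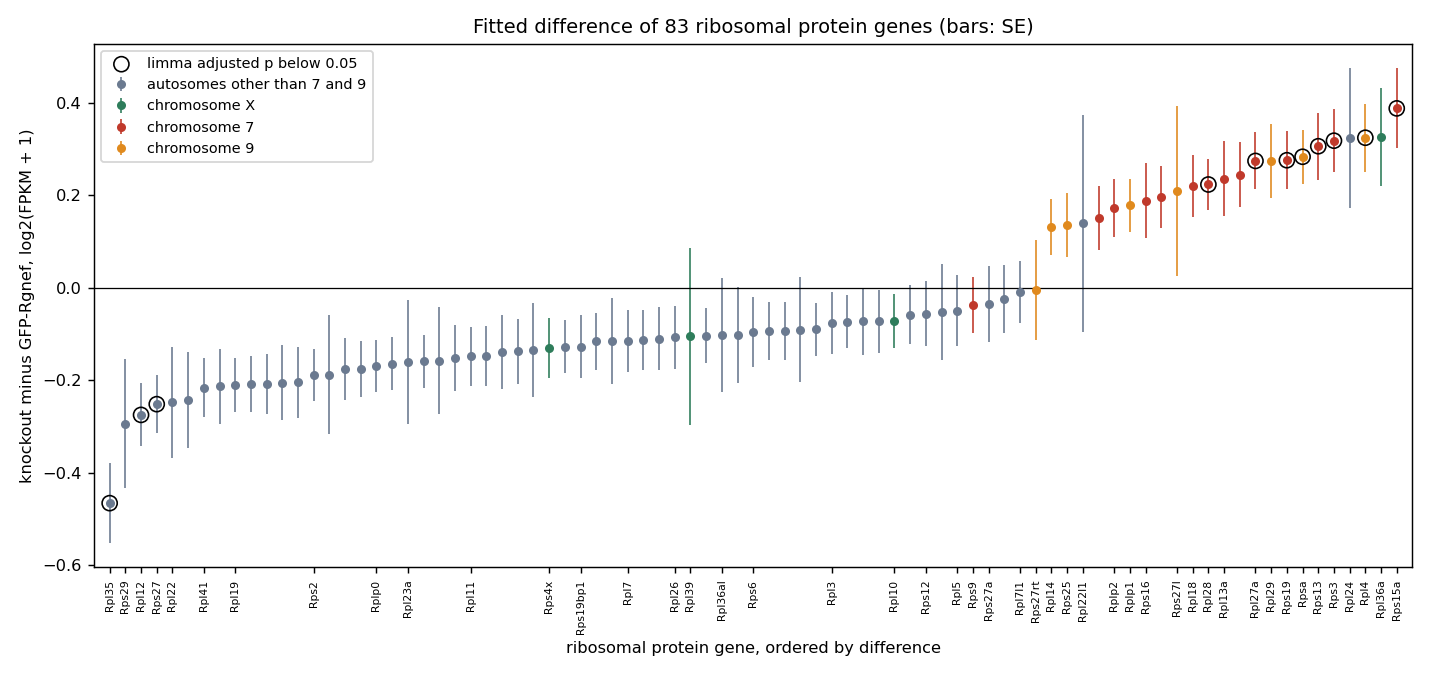
Fitted differences (knockout minus GFP-Rgnef, log2(FPKM + 1), y axis) of the 83 tested ribosomal protein genes in order of size (x axis), with bars of 1 SE, colours for the chromosome and names for the genes given in the text. Of the genes with rings (limma adjusted p below 0.05), the 8 above 0 lie on chromosome 7 or 9 and the 3 below 0 on other chromosomes.

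With limma over all genes and a call at a Benjamini-Hochberg adjusted p below 0.05, 8 members rose in the knockout libraries and 3 fell. Over all tested genes 8.04% were called higher and 5.34% lower. All 8 that rose lie on chromosomes 7 and 9, 8 of 22 members, where 32.2% of all tested genes were called higher. The 3 that fell lie elsewhere, 3 of 61 members, where 5.96% of all tested genes were called lower. Both shares are thus near their background. No member on chromosomes 7 and 9 was called lower and none elsewhere higher, against 1.03% of tested genes called lower and 4.53% called higher there. An unadjusted p below 0.05 gave 0 and 1 such members, and voom in limma on reads recovered from the FPKM values gave 0 and 0. The 3 libraries of each group did not overlap in 18 of the 22 members on chromosomes 7 and 9, all of them higher in the knockout libraries, as were 58.0% of all tested genes there (1.99% were lower). Elsewhere, 25 of 61 members had all 3 knockout libraries below all GFP-Rgnef libraries, against 18.8% of tested genes, and 1 had them above, against 10.7%. At an unadjusted p below 0.05 there were 35 of 83 members, against 28.4% of all tested genes. On chromosomes 7 and 9 these were 16 of 22 members, against 853 of 1458 tested genes there. On the other chromosomes they were 19 of 61 members, against 2416 of 10042 tested genes. Except for Rpl35, no call was kept when each library in turn was left out. Without GFP-Rgnef 1, GFP-Rgnef 2 or knockout 2 the members that rose numbered 1, 0 and 0 and those that fell 1 each, and without knockout 1 there were 9 and 1. Over all tested genes, those that rose in these fits numbered 525, 458, 484 and 588 in the same order, and those that fell 308, 198, 213 and 379.

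On chromosome 7, 4 genes of the small subunit rose. Rps15a (ENSMUSG00000008683, chromosome 7, 118104372 to 118116188, minus strand) encodes a protein of the small subunit and had the largest fitted increase of all members. Rps15a stood at 259, 253 and 285 FPKM in the GFP-Rgnef libraries and 311, 356 and 379.7 FPKM in the knockout libraries. The lowest knockout library lay above the highest GFP-Rgnef library, and it differed by 0.39 (SE 0.0866, limma adjusted p = 0.0234), a ratio of means of 1.31. Rps3 (ENSMUSG00000030744, chromosome 7, 99477896 to 99483738, minus strand), whose protein lines the entry of the messenger RNA channel, stood at 542, 524 and 555 FPKM in the GFP-Rgnef libraries and 642, 653 and 731 FPKM in the knockout libraries. The groups did not overlap, and the difference was 0.32 (SE 0.0676, limma adjusted p = 0.0197). Rps13 (ENSMUSG00000090862, chromosome 7, 116331505 to 116334195, minus strand), a protein of the face that meets the large subunit, stood at 634, 624 and 631 FPKM in the GFP-Rgnef libraries and 707, 799 and 836 FPKM in the knockout libraries. Its GFP-Rgnef libraries lay close together and its knockout libraries were spread above them, with a difference of 0.31 (SE 0.0721, limma adjusted p = 0.0284). Rps19 (ENSMUSG00000040952, chromosome 7, 24884371 to 24889806, plus strand), the gene most often mutated in Diamond-Blackfan anaemia, stood at 668, 655 and 659.8 FPKM in the GFP-Rgnef libraries and 771, 776 and 859 FPKM in the knockout libraries. The difference was 0.28 (SE 0.0626, limma adjusted p = 0.0247), with no overlap between the groups.

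Of the large subunit, 2 genes on chromosome 7 rose. Rpl27a (ENSMUSG00000046364, chromosome 7, 109519147 to 109522367, plus strand) stood at 753, 756 and 759.5 FPKM in the GFP-Rgnef libraries and 861, 919 and 968 FPKM in the knockout libraries, with a difference of 0.27 (SE 0.0617, limma adjusted p = 0.0242). The GFP-Rgnef libraries spanned a few FPKM and all knockout libraries lay above them. Rpl28 (ENSMUSG00000030432, chromosome 7, 4792874 to 4795066, plus strand), a protein of the large subunit found in animals and plants but not in budding yeast, stood at 1235, 1213 and 1174 FPKM in the GFP-Rgnef libraries and 1394, 1425 and 1410.4 FPKM in the knockout libraries. Its difference was 0.22 (SE 0.0543, limma adjusted p = 0.0312), with SDs of 30.6 and 15.9 FPKM, and it was lost as a call without any 1 of the 6 libraries (adjusted p up to 0.135). Exons of Rpl28 overlap those of Ube2s on the other strand, and Ube2s rose as well (difference 0.31, SE 0.0605, limma adjusted p = 0.0150). Whether the reads were counted by strand is not given in the sources used here, so reads of the overlap cannot be told apart.

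On chromosome 9, Rpl4 and Rpsa rose. Rpl4 (ENSMUSG00000032399, chromosome 9, 64173375 to 64178666, plus strand), which encodes a protein that reaches into the exit tunnel for the nascent chain, stood at 1264, 1219 and 1091 FPKM in the GFP-Rgnef libraries and 1496, 1557 and 1419.6 FPKM in the knockout libraries. The difference was 0.32 (SE 0.0734, limma adjusted p = 0.0245), a ratio of means of 1.25, and the groups did not overlap. Rpsa (ENSMUSG00000032518, chromosome 9, 120127689 to 120132369, plus strand) encodes a small-subunit protein that is also known as the laminin receptor precursor. It stood at 793, 806 and 793 FPKM in the GFP-Rgnef libraries and 929, 964 and 1023 FPKM in the knockout libraries, with a difference of 0.28 (SE 0.0589, limma adjusted p = 0.0180). Of the members that rose, Rpsa, Rps3, Rps15a, Rpl4 and Rps19 kept their call in 3 of the 6 fits that left out 1 library, Rpl27a in 2, Rps13 in 1 and Rpl28 in 0.

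**Figure D2:**
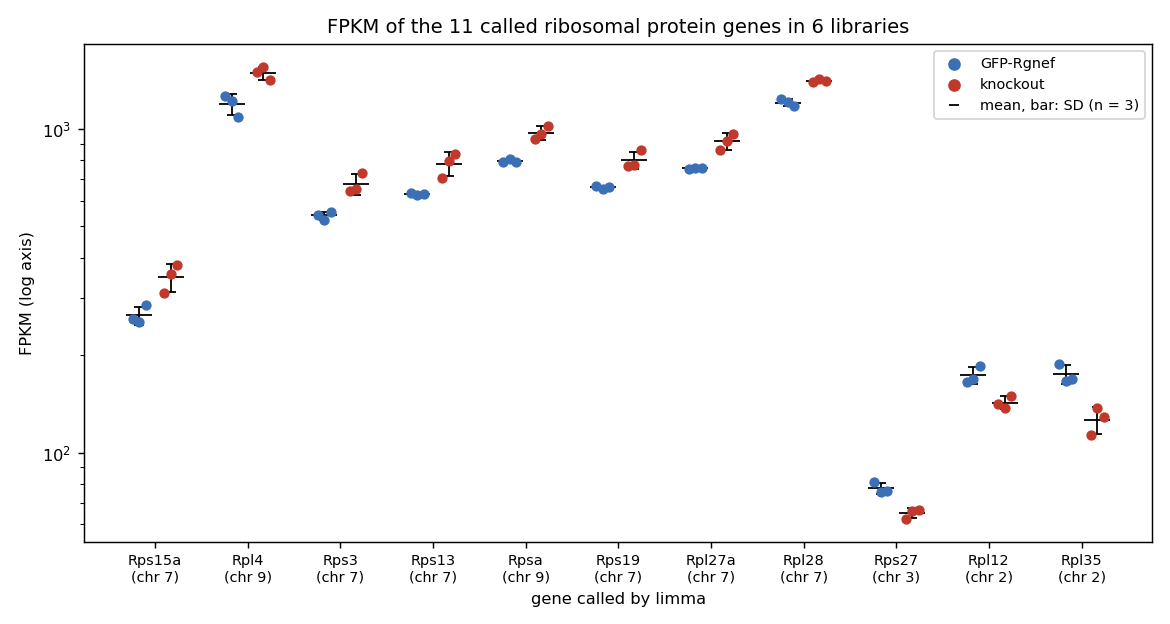
FPKM (y axis, log scale) in the 6 libraries of the 11 ribosomal protein genes called by limma (x axis), as points, with the mean of each group and its SD (n = 3). In the 8 genes on chromosomes 7 and 9 the knockout libraries lie above the GFP-Rgnef libraries, and in Rps27, Rpl12 and Rpl35 below them.

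The other 14 members on chromosomes 7 and 9 did not pass the test, and 10 of them had all knockout libraries above all GFP-Rgnef libraries. Rplp1, which with Rplp2 forms the stalk that recruits elongation factors, was the most abundant member on these chromosomes. It stood at 2249, 2282 and 2162 FPKM in the GFP-Rgnef libraries and 2449.5, 2580.1 and 2546 FPKM in the knockout libraries (difference 0.18, SE 0.0574, limma adjusted p = 0.0789). Rplp2 stood at 971 ± 43.7 FPKM (SD, n = 3) with GFP-Rgnef and 1094 ± 48.4 FPKM (SD, n = 3) without it, with a difference of 0.17 (SE 0.0634, limma adjusted p = 0.116), so both stalk genes lay higher without overlap but missed the threshold. Rpl13a, known for silencing of inflammatory messenger RNAs when released from the ribosome, stood at 1297, 1283 and 1398 FPKM in the GFP-Rgnef libraries and 1470.3, 1482 and 1745 FPKM in the knockout libraries (difference 0.24, SE 0.0812, limma adjusted p = 0.0965). Rpl29, a protein of the large subunit, lay near the threshold, with a difference of 0.28 (SE 0.0802, limma adjusted p = 0.0581). Rps16, Rpl18 and Rpl14 differed by 0.19, 0.22 and 0.13 with adjusted p between 0.0660 and 0.197. Rps25, needed for initiation at some internal ribosome entry sites, differed by 0.14, and its groups overlapped.

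Rps9 was the member on chromosome 7 that lay apart from the rest. Its protein serves in the accuracy of decoding. Rps9 (ENSMUSG00000006333, chromosome 7, 3703993 to 3706897, plus strand) stood at 1305, 1325 and 1254 FPKM in the GFP-Rgnef libraries and 1242, 1325 and 1219 FPKM in the knockout libraries, a difference of -0.04 (SE 0.0600, limma adjusted p = 0.747). The groups overlapped, and without any 1 library the difference stayed between -0.07 and -0.01. It lies at the start of the chromosome, where the 42 other tested genes within 5 Mb had a median of 0.16, and Rpl28 close by, with a median of 0.16 around it, rose by 0.22. Further along chromosome 7 the medians around Rps3, Rpl27a, Rps13 and Rps15a were 0.30, 0.30, 0.32 and 0.30, and all of these members rose. On chromosome 9, Rpl14 and Rpsa lie within 1 stretch with a median of 0.34, and their own differences were 0.13 and 0.28. After each chromosome was centred on its own median in every library, 0 members were called higher and 2 lower, the median of the 22 members was -0.03 and that of the members elsewhere was -0.09. The 2 were Rpl35 and Rps9, which lay at -0.29 (SE 0.0626, limma adjusted p = 0.0285) relative to its chromosome. Of all 11500 tested genes, 494 were called higher and 388 lower in this fit.

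**Figure D3:**
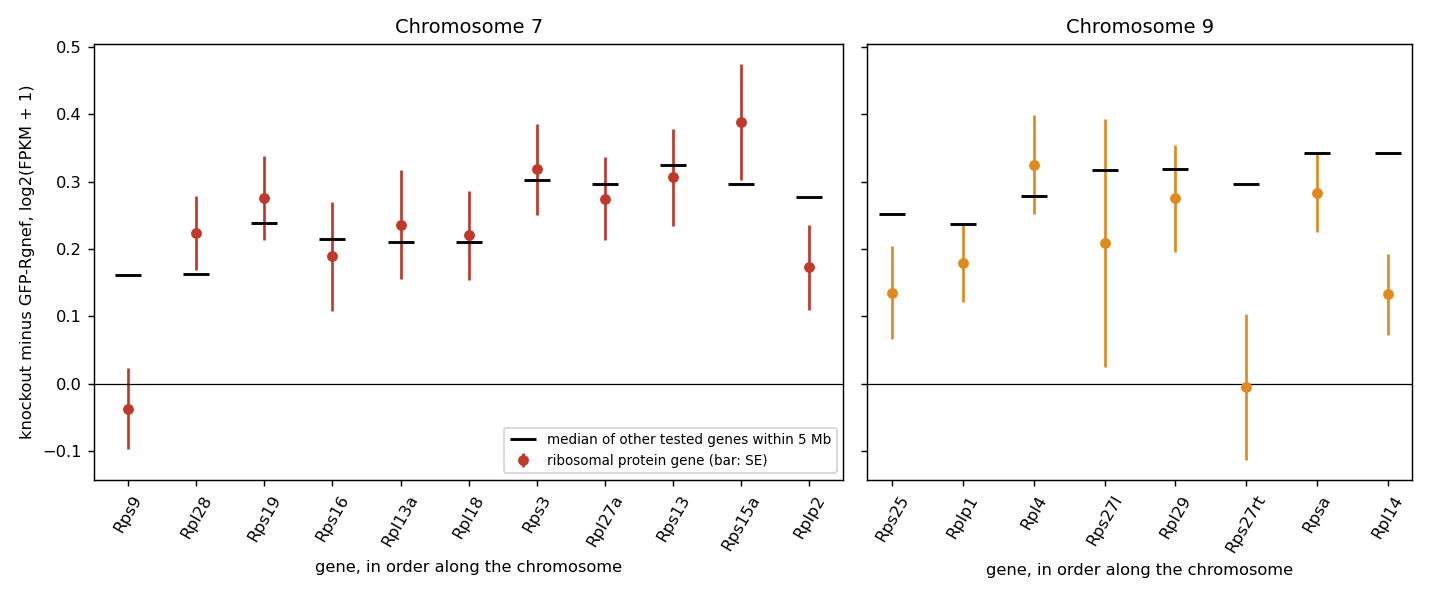
Fitted differences (knockout minus GFP-Rgnef, log2(FPKM + 1), y axis) of 19 of the 22 ribosomal protein genes on chromosomes 7 and 9, those named in the text, in chromosomal order (x axis), with bars of 1 SE. Black dashes give the median difference of the other tested genes within 5 Mb, and Rps9 and Rps27rt are the members that lie below 0.

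Among members on the other chromosomes, 3 fell: Rpl35, Rpl12 and Rps27. Rpl35 (ENSMUSG00000062997, chromosome 2, 39001580 to 39005624, minus strand), which encodes a protein beside the opening of the exit tunnel, stood at 188, 166 and 169 FPKM in the GFP-Rgnef libraries and 113, 137 and 129 FPKM in the knockout libraries. Its difference of -0.47 (SE 0.0869, limma adjusted p = 0.0116), a ratio of means of 0.724, was the largest decrease of any member, and the call held without each of the 6 libraries (adjusted p up to 0.0470). The 39 other tested genes within 5 Mb had a median of -0.00. Exons of Rpl35 overlap those of Arpc5l on the other strand. Arpc5l stood at 39.5, 41.4 and 44.7 FPKM with GFP-Rgnef and 37.6, 36.6 and 38.4 FPKM without it, with a difference of -0.15 (SE 0.0704, limma adjusted p = 0.200).

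Rpl12 (ENSMUSG00000038900, chromosome 2, 32961559 to 32965345, plus strand), a protein at the base of the stalk, stood at 165, 169 and 185 FPKM in the GFP-Rgnef libraries and 141, 137 and 150.2 FPKM in the knockout libraries. The difference was -0.28 (SE 0.0683, limma adjusted p = 0.0339), with no overlap, and the call was kept in 1 of the 6 fits that left out a library. Rps27, a small-subunit protein with a zinc finger, stood at 80.9, 75.7 and 76.0 FPKM in the GFP-Rgnef libraries and 62.4, 66.0 and 66.5 FPKM in the knockout libraries. The difference was -0.25 (SE 0.0629, limma adjusted p = 0.0349), and the call was kept in 2 of the 6 fits. These 3 genes were among the least abundant members: of 83 tested, Rpl12, Rpl35 and Rps27 had ranks 77, 78 and 80 by mean FPKM, counted from the most abundant, while the median member stood at 952 FPKM.

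The most abundant members also lay lower in the knockout libraries but missed the threshold. Rps2, a small-subunit protein at the messenger RNA entry and the most abundant member, stood at 3811, 3801 and 3729 FPKM in the GFP-Rgnef libraries and 3271, 3275 and 3404 FPKM in the knockout libraries. The knockout libraries all lay lower, with a difference of -0.19 (SE 0.0555, limma adjusted p = 0.0597). Rplp0, the stalk's base protein, stood at 3355, 3392 and 3216 FPKM in the GFP-Rgnef libraries and 2904, 2982 and 2967 FPKM in the knockout libraries (difference -0.17, SE 0.0563, limma adjusted p = 0.0869). Rpl41, which encodes the smallest ribosomal protein, stood at 2624, 2609.6 and 2638 FPKM in the GFP-Rgnef libraries and 2192, 2423 and 2166 FPKM in the knockout libraries (difference -0.22, SE 0.0639, limma adjusted p = 0.0601). In each of these 3 genes the groups did not overlap.

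Other members elsewhere are given by their roles. The genes of Rpl5 and Rpl11, which bind Mdm2 when ribosome assembly fails, differed by -0.05 and -0.15 (adjusted p = 0.737 and 0.167 with limma). Rps6, the substrate of the S6 kinases, stood at 1049, 1072 and 1128 FPKM with GFP-Rgnef and 918, 1036 and 1091 FPKM without it, and the groups overlapped (difference -0.10, SE 0.0759, limma adjusted p = 0.467). Rpl3, a protein of the peptidyl transferase centre, differed by -0.08, and Rpl26 and Rpl19, which like Rpl35 lie near the tunnel exit, by -0.11 and -0.21. Rpl19 had an adjusted p of 0.0509 with limma and no overlap between the groups. Rps29, which carries a zinc finger, had the second lowest difference, -0.29 (SE 0.139, limma adjusted p = 0.209), but its libraries overlapped, at 952, 899 and 1219 FPKM with GFP-Rgnef and 704, 841 and 955 FPKM without it. Rps19bp1 stood at 72.0 ± 4.73 FPKM (SD, n = 3) with GFP-Rgnef and 65.8 ± 1.46 FPKM (SD, n = 3) without it, a difference of -0.13 (SE 0.0686, limma adjusted p = 0.269).

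By subunit the pattern was alike. The 13 small-subunit genes on chromosomes 7 and 9 had a median of 0.21 and the 9 large-subunit genes there a median of 0.22. Elsewhere the medians were -0.14 over 20 small-subunit genes, all of them below 0, and -0.11 over 40 large-subunit genes, 37 of them below 0. Among genes of at least 100 FPKM outside chromosomes 7 and 9, the 56 members had a median of -0.12 and the 1025 other genes a median of -0.06. On chromosomes 7 and 9 the corresponding medians were 0.22 over 22 members and 0.28 over 111 other genes. None of these medians was tested, since genes are not replicates.

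Outside chromosomes 7 and 9, 3 members lay above 0, namely Rpl36a, Rpl22l1 and Rpl24. Rpl36a (ENSMUSG00000079435, chromosome X, 134585654 to 134588062, plus strand) stood at 535, 508 and 601 FPKM in the GFP-Rgnef libraries and 596, 689.6 and 784 FPKM in the knockout libraries. GFP-Rgnef 3 lay above knockout 1, and the difference was 0.33 (SE 0.107, limma adjusted p = 0.0844). The other 3 members on chromosome X, Rps4x, Rpl39 and Rpl10, differed by -0.13, -0.11 and -0.07, and all tested genes on X had a median of 0.03. Around Rpl36a, however, the 23 other tested genes within 5 Mb had a median of 0.37, and 15 of them were called higher and 0 lower. Rpl36a was called higher without knockout 1 and with both libraries numbered 3 left out (limma adjusted p = 0.0383 and 0.0254), and in each of these fits it was the 1 member outside chromosomes 7 and 9 that rose.

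Rpl24 was listed at 0.679, 0.970 and 0.892 FPKM in the GFP-Rgnef libraries and 1.18, 1.77 and 1.04 FPKM in the knockout libraries, from 6 to 16 reads per library, whereas 78 members reached at least 100 FPKM. Its 3 knockout libraries lay above the GFP-Rgnef libraries, with a difference of 0.32 (SE 0.152, limma adjusted p = 0.205) at a level where few reads decide the value. Near-identical copies of Rpl24 in the table (at least 95% identity over 80% of the shorter transcript) summed to 67.3% of its level. How reads of Rpl24 were assigned is not given in the sources used here, and the value cannot be read as the level of all Rpl24 messenger RNA.

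Several ribosomal proteins have a further gene. Rps27 on chromosome 3 and Rps27rt on chromosome 9 (ENSMUSG00000050621, chromosome 9, 114982366 to 114982739, minus strand) have transcripts that are identical over the matched part, so reads could be assigned to either. Rps27rt stood at 688, 706 and 838 FPKM in the GFP-Rgnef libraries and 647, 753 and 827 FPKM in the knockout libraries, with means of 743 FPKM for Rps27rt and 71.3 FPKM for Rps27. Its difference was -0.01 (SE 0.108, limma adjusted p = 0.983), although the 49 tested genes around it had a median of 0.30. With the reads of both genes summed, the difference was -0.02 (SE 0.103, limma adjusted p = 0.926), and Rps27 alone had an adjusted p of 0.127 with voom. The decrease of Rps27 is therefore uncertain. Rps27l, a close relative that is a target of p53 and lies on chromosome 9, stood at 267, 266 and 390.4 FPKM in the GFP-Rgnef libraries and 281, 356 and 429 FPKM in the knockout libraries. The libraries numbered 3 were the highest of each group, the groups overlapped, and the difference was 0.21 (SE 0.184, limma adjusted p = 0.517).

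The pair Rpl22 and Rpl22l1, whose proteins also bind RNA outside the ribosome, had differences of opposite sign. Rpl22 stood at 300.2, 299 and 359.7 FPKM in the GFP-Rgnef libraries and 234, 260.3 and 317 FPKM in the knockout libraries, a difference of -0.25 (SE 0.120, limma adjusted p = 0.221). Rpl22l1 stood at 253, 231 and 387 FPKM in the GFP-Rgnef libraries and 233, 314 and 412 FPKM in the knockout libraries, a difference of 0.14 (SE 0.235, limma adjusted p = 0.759). In both genes the libraries numbered 3 were the highest of their group and the groups overlapped. The difference of Rpl22l1 turned to -0.01 without GFP-Rgnef 2 and to -0.06 without knockout 3.

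Rpl36al, a retrogene copy of Rpl36a on chromosome 12, stood at 279 ± 31.4 FPKM (SD, n = 3) with GFP-Rgnef and 261 ± 42.3 FPKM (SD, n = 3) without it (difference -0.10, SE 0.123, limma adjusted p = 0.653). Rpl7l1, a distant relative of Rpl7, stood at 81.2 ± 0.858 FPKM (SD, n = 3) with GFP-Rgnef and 80.8 ± 5.33 FPKM (SD, n = 3) without it. Rpl7l1 differed by -0.01 and Rpl7 by -0.11. The muscle form Rpl3l had 0 to 0.0587 FPKM beside 1394 FPKM for Rpl3, and the testis forms Rpl10l and Rpl39l were listed at 0 beside 1234 and 785 FPKM for Rpl10 and Rpl39. Rpl39, a small protein of the exit tunnel, stood at 698, 702 and 1044 FPKM in the GFP-Rgnef libraries and 603, 732 and 931 FPKM in the knockout libraries, with the libraries numbered 3 the highest.

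Processed copies are common in this family, and 78 of the 86 members had near-identical copies among the identifiers of the table. The copies reached 10% of the member's level for 3 members, Rps27, Rpl24 and Rps12. For Rps12 the main copy was Rps12-ps3 with a mean of 171 FPKM, beside 1682 FPKM for Rps12 itself. For 74 further members with copies, these summed to less than 10% of the member's level. How reads that match several places were treated is not given in the sources used here. Exons of Rpl23a, which stood at 60.1 ± 13.0 FPKM (SD, n = 3) with GFP-Rgnef and 53.0 ± 2.86 FPKM (SD, n = 3) without it, overlap those of Tlcd1, so its value is uncertain as well.

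Summed over members, ribosomal protein RNA took a similar share of each library. The members held 13.4%, 13.3% and 13.4% of the summed FPKM in the GFP-Rgnef libraries and 12.6%, 13.4% and 13.6% in the knockout libraries. The groups overlapped, and knockout 1 had the lowest share. What differed was the split within the family. Members on chromosomes 7 and 9 gave 23.7%, 23.8% and 22.9% of the members' FPKM with GFP-Rgnef and 28.4%, 27.8% and 27.6% without it, which is 23.5% ± 0.497 against 27.9% ± 0.400 (SD, n = 3). The lowest knockout library lay above the highest GFP-Rgnef library.

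Both sides of this split varied between libraries. Relative to each gene's mean over 6 libraries, the median deviation of the 22 members on chromosomes 7 and 9 was -0.10, -0.11 and -0.13 with GFP-Rgnef and 0.04, 0.13 and 0.18 without it. For the 61 members elsewhere it was 0.06, 0.05 and 0.08 with GFP-Rgnef and -0.16, -0.04 and -0.01 without it. Knockout 1 thus stood lowest of the knockout libraries on both counts, and knockout 3 lay near the mean for the members elsewhere. Within a library, the gap between the medians (chromosomes 7 and 9 minus elsewhere) was -0.15, -0.16 and -0.21 with GFP-Rgnef and 0.19, 0.17 and 0.19 without it, which varied little between libraries of a group. Without knockout 1 the median difference of the members elsewhere was -0.08 in place of -0.13, and 50 of 61 lay below 0.

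**Figure D4:**
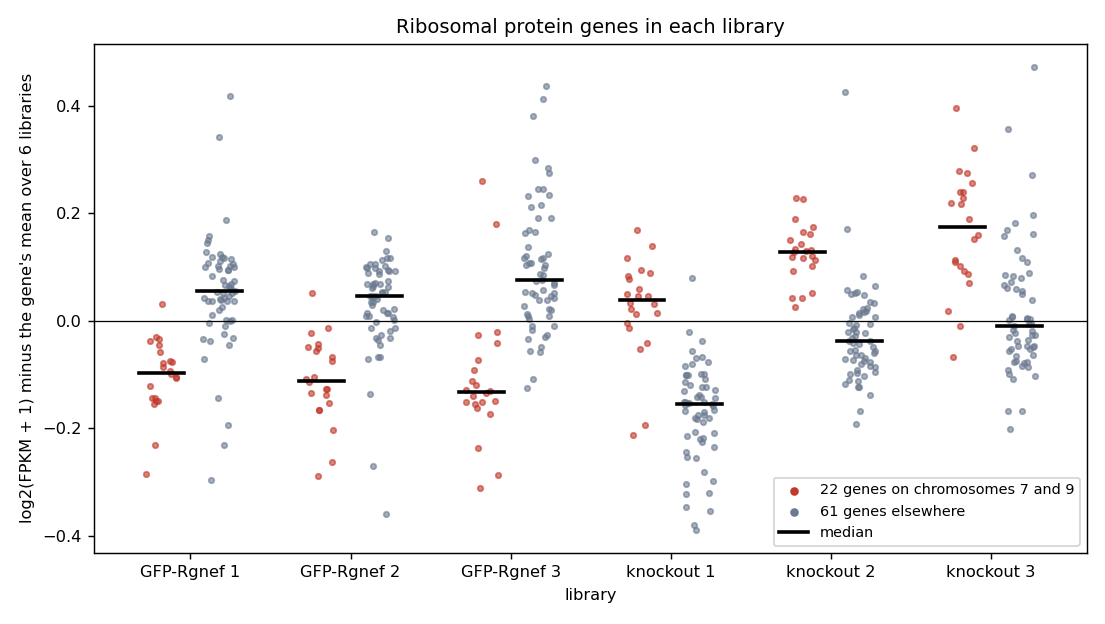
Deviation of each tested ribosomal protein gene from its own mean over the 6 libraries (log2(FPKM + 1), y axis) by library (x axis), with 22 genes on chromosomes 7 and 9 in red, 61 genes elsewhere in grey and medians as bars. The red median lies below the grey one in each GFP-Rgnef library and above it in each knockout library, and the grey median is lowest in knockout 1.

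The libraries numbered 3 differed from the others of their group in part of the family. For the 78 members of at least 100 FPKM, library 3 minus the mean of libraries 1 and 2 had a median of 0.01 with GFP-Rgnef (range -0.26 to 0.68) and 0.10 without it (range -0.16 to 0.60). Rpl22l1, Rpl39, Rps27l and Rps29 were highest in GFP-Rgnef 3, with values of 0.68, 0.58, 0.55 and 0.40, and the same genes had 0.60, 0.49, 0.44 and 0.31 in knockout 3. Rpl29, Rps16 and Rpl4 were among the lowest in GFP-Rgnef 3. Across genes, Pearson's r between the groups was 0.866 (Spearman's rank correlation 0.777, 78 genes that share the 6 libraries and are not independent). With both libraries numbered 3 left out, 11 members rose and 14 fell, and the median differences were 0.18 on chromosomes 7 and 9 and -0.15 elsewhere. Calls over all genes were more numerous in this fit as well. There 1278 of 11451 tested genes rose and 1059 fell, against 925 and 614 of 11500 with all 6 libraries.

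**Figure D5:**
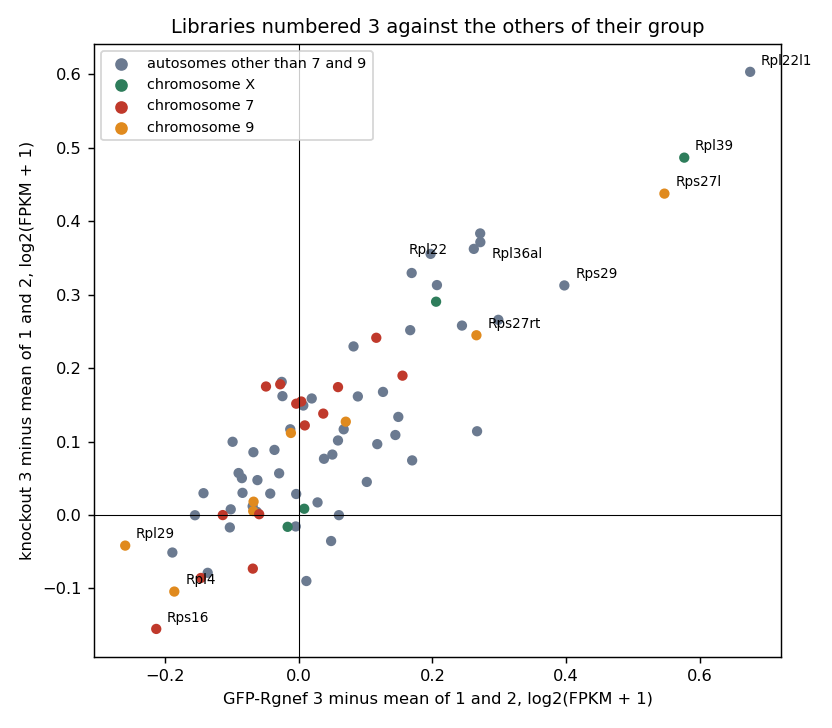
Library 3 minus the mean of libraries 1 and 2 on the log2(FPKM + 1) scale, in the GFP-Rgnef group (x axis) and in the knockout group (y axis), for the 78 ribosomal protein genes of at least 100 FPKM. Rpl22l1, Rpl39, Rps27l and Rps29 lie at the upper right, so they were higher in library 3 of both groups.

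Ribosomal proteins that the naming rule leaves out were looked at beside the members. Fau, which encodes a ubiquitin-like protein fused to a small-subunit protein, stood at 985, 959.5 and 1109.5 FPKM in the GFP-Rgnef libraries and 807, 824 and 978 FPKM in the knockout libraries and did not pass the test (difference -0.23, SE 0.0917, limma adjusted p = 0.143). Rps27a, a member that encodes a fusion with ubiquitin, differed by -0.03. Rack1, a scaffold on the small subunit, differed by -0.15 (limma adjusted p = 0.368).

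Genes that build the ribosome were looked at by list. Of 54 tested ribosome biogenesis factors, 2 rose and 1 fell, against 8.04% and 5.34% of all tested genes. Both that rose are among the 3 of the list on chromosomes 7 and 9, where 32.2% of all tested genes were called higher. Those that rose were Fbl, the methyltransferase of the box C/D particles, on chromosome 7 (difference 0.26, SE 0.0630, limma adjusted p = 0.0327) and the helicase gene Ddx10 on chromosome 9 (0.30, SE 0.0783, limma adjusted p = 0.0403). Nop56, a core protein of the same particles as Fbl, lies on chromosome 2 and fell, at 654, 619 and 543 FPKM in the GFP-Rgnef libraries and 489, 476 and 465 FPKM in the knockout libraries (difference -0.34, SE 0.0766, limma adjusted p = 0.0243). The nucleolar proteins Npm1 and Ncl differed by -0.03 and 0.12 and did not pass the test. Of 10 tested chaperones and importers of ribosomal proteins, 4 of them on chromosomes 7 and 9, Ipo7 and Grwd1 rose, both on chromosome 7, by 0.36 and 0.36 (limma adjusted p = 0.0136 and 0.0150), and 0 fell (1 at an unadjusted p below 0.05, 0 with voom).

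Of 19 genes of RNA polymerase I and its factors, which transcribe ribosomal RNA, 2 rose and 2 fell, against 8.04% and 5.34% of all tested genes. Of the 19, 3 lie on chromosomes 7 and 9, where 32.2% of all tested genes were called higher. Cd3eap, a subunit of the polymerase, and Polr2l, a subunit shared with the other polymerases, rose, both on chromosome 7, with differences of 0.43 and 0.32. Taf1a, a subunit of the promoter selectivity factor, on chromosome 1, and Polr2e, another shared subunit, on chromosome 10, fell, with differences of -0.33 and -0.31. Polr2e and Polr2l had limma adjusted p of 0.0462 and 0.0498, close to the threshold. The 16 genes of the list outside chromosomes 7 and 9 had a median of -0.07.

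Of 36 translation initiation factors 4 rose and 0 fell, against 8.04% and 5.34% of all tested genes. At an unadjusted p below 0.05, 4 lay lower, and 0 were called lower with voom. The 4 that rose are among the 6 of the list on chromosomes 7 and 9, where 32.2% of all tested genes were called higher. Eif4g2, a relative of the scaffold Eif4g1 that serves initiation without the cap-binding protein, is on chromosome 7 and stood at 1239, 1184 and 1283 FPKM in the GFP-Rgnef libraries and 1618, 1757 and 1787 FPKM in the knockout libraries (difference 0.48, SE 0.0648, limma adjusted p = 0.00396). Eif1b on chromosome 9 and Eif3f and Eif3c on chromosome 7 differed by 0.53, 0.28 and 0.35. The 30 initiation factors elsewhere had a median of -0.06. Of 12 elongation and release factors, 2 of them on chromosomes 7 and 9, 1 was called. The shares of all tested genes were again 8.04% and 5.34%, and 32.2% were called higher on chromosomes 7 and 9. Eef2k on chromosome 7, the kinase that inhibits Eef2, rose by 0.48 (limma adjusted p = 0.00489). Eef1a1 on chromosome 9, the carrier of aminoacyl-tRNA, stood at 8566, 8409.8 and 8822 FPKM in the GFP-Rgnef libraries and 9208, 10087 and 9742 FPKM in the knockout libraries and did not pass the test (difference 0.17, SE 0.0633, limma adjusted p = 0.120).

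Of 20 tested TOP messenger RNAs other than the members, 1 rose and 2 fell, against 8.04% and 5.34% of all tested genes. The 18 outside chromosomes 7 and 9 had a median of -0.12, near the -0.13 of the members there. Eif3f rose. Gas5, which fell, is a non-coding host gene of small nucleolar RNAs that starts with the motif. It stood at 408, 386 and 435 FPKM in the GFP-Rgnef libraries and 296, 336 and 303 FPKM in the knockout libraries (difference -0.39, SE 0.0731, limma adjusted p = 0.0115). Several TOP genes are also translation factors of the lists above, so these counts are not independent.

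Among 16 regulators of TOP messenger RNAs and growth, 0 rose (0 at an unadjusted p below 0.05, 0 with voom) and 2 fell. All 16 lie outside chromosomes 7 and 9. Of all tested genes outside these chromosomes, 4.53% were called higher and 5.96% lower. Rps6ka1, a kinase of the RSK family, stood at 53.3, 59.0 and 56.2 FPKM in the GFP-Rgnef libraries and 33.1, 27.2 and 35.9 FPKM in the knockout libraries (difference -0.80, SE 0.103, limma adjusted p = 0.00315), and Eif4ebp1, the repressor of cap-dependent initiation that mTOR inactivates, differed by -0.24 (SE 0.0636, limma adjusted p = 0.0401). Myc, a transcription factor that raises ribosomal protein genes, stood at 123, 124 and 115 FPKM in the GFP-Rgnef libraries and 88.3, 82.0 and 112 FPKM in the knockout libraries. All knockout libraries lay lower, but the test was not passed (difference -0.36, SE 0.112, limma adjusted p = 0.070). Larp1 and Mtor differed by 0.03 and -0.18, with adjusted p of 0.852 and 0.579 in limma. Of 12 tested factors of ribosome quality control and collision, 0 were called in either direction, with 1 higher and 1 lower at an unadjusted p below 0.05 and 0 with voom. Those 12 also lie outside chromosomes 7 and 9, so the same shares of tested genes apply.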

How the data were processed

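Poly-T selected RNA of 6 libraries (3 per group, numbered 1 to 3 in the titles) was prepared with a NEBNext Ultra kit and sequenced on an Illumina HiSeq instrument, per the labels. FPKM values of 35275 Ensembl gene identifiers were deposited by the authors in 1 table. The submitters' processing notes name CASAVA 1.8, TopHat2 2.0.9, DESeq2 and the build mm10. The annotation, the counting and the use of strand are not given in the sources used here. GENCODE release M21 (GRCm38, equal to mm10) supplied symbols and coordinates for 34490 identifiers, and promoter windows came from RefSeq.

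The low values showed whole reads: in each library, genes with an annotated exon length gave the depth, and for the others the smallest length that made all values whole within 0.02 was used. Where that length is too short, read numbers are lower bounds. The recovered reads came to 99.77% to 99.85% of the depths of 15898965 to 17977069 reads. Genes with few reads have the larger counting error.

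Differences (knockout minus GFP-Rgnef) were fitted over 11500 genes with a mean of at least 0.5 FPKM on log2(FPKM + 1) with limma 3.58.1 (trend on, R 4.3.3). This scale understates the change of low genes. Adjusted p-values are Benjamini-Hochberg over all genes tested, with a call below 0.05. No count, median or level over the members was tested. Near-identical copies were found with blastn 2.17.0. The limma step was tested on simulated data. Plots were drawn with matplotlib 3.10.9 and other steps run with pandas 2.3.3 and numpy 2.4.6 in Python 3.11.15. Alternatives covered scaling, filter, pseudocount, variance model, chromosome centring, each library left out, libraries numbered 3, the replicate block and voom on recovered reads. Leaving chromosomes 7 and 9 out of the fit and summing Rps27 with Rps27rt were chosen after seeing the data.

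The members, the gene lists and the division by chromosome were chosen with earlier results of these data known. Full values are given for members called, the most abundant on chromosomes 7 and 9, paralogue pairs and the most and least abundant members, and for up to 4 genes of each list (those called with the smallest p, filled with the most abundant). Some genes are not reported here by name, though they enter the counts and medians. Rps29, Rps9, Rps6, Rpl19, Rpl11, Rpl5, Rpl26 and list genes that were not called were chosen after their values were seen.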

Additional observations from a re-analysis of the deposited data

How the results depend on the processing

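The median difference stayed above 0 for members on chromosomes 7 and 9 and below 0 for members elsewhere in each alternative except chromosome centring, where the former was -0.0292, 0 members rose and 2 fell (Rpl35 and, on chromosome 7, Rps9). Centring moved the median of all genes by 0.0323 and the other scalings by less. The number of members that rose (8) was 13 with TPM scaling, 16 with the replicate block, 4 without trend, 0 without a filter and 0 with chromosomes 7 and 9 left out. The number that fell (3) was 14 with both libraries numbered 3 left out, 15 with the replicate block, 6 at a mean of at least 5 FPKM and 1 without trend. Over all tested genes, 925 rose and 614 fell without these changes. They numbered 1278 and 1059 without the libraries numbered 3, and 1517 and 1253 with the replicate block. With TPM scaling there were 1007 and 492, without trend 855 and 502, and with chromosome centring 494 and 388. Without a filter there were 725 and 394, and at a mean of at least 5 FPKM 688 and 496. Leaving out 1 library gave 0 to 9 members that rose and 1 to 4 that fell, and medians of 0.18 to 0.26 on chromosomes 7 and 9 and -0.16 to -0.08 elsewhere. Over all tested genes, 458 to 848 rose and 198 to 580 fell in those fits. The cause of these changes was not tested, apart from chromosomes 7 and 9, where leaving out or centring removes the genes or their chromosome's difference by construction.

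Over the 46 tested members named in the text, 763 alternative values were computed, of which 642 kept direction and side of the threshold, 63 lost the call, 27 gained one and 31 changed sign. Chromosome centring turned Rpl13a (-0.0152), Rpl14 (-0.16), Rpl18 (-0.0311), Rpl28 (-0.0274), Rpl29 (-0.0167), Rplp1 (-0.11), Rplp2 (-0.0785), Rps16 (-0.0623), Rps25 (-0.16), Rps27l (-0.0824) and Rpsa (-0.00798) below 0, and Rpl7l1 (0.0641) and Rps27a (0.0329) above it. Rpl7l1 also turned to 0.0143 (TPM) and 0.00135 (voom). Rps27rt, near 0, turned to 0.0187 (TPM), 0.00179 (libraries numbered 3 left out), 0.000333 (median ratio scaling) and 0.00531 (voom). Without 1 library it ranged from -0.0869 to 0.0905, being above 0 without GFP-Rgnef 3 or knockout 1. Rpl39 ranged from -0.267 to 0.0870, above 0 without GFP-Rgnef 3 or knockout 1, and Rpl22l1 from -0.0616 to 0.365, below 0 without GFP-Rgnef 2 or knockout 3. Without knockout 1, Rpl5, Rpl7l1, Rps12 and Rps27a lay above 0, and so did Rps27a without GFP-Rgnef 3 and Rpl23a without GFP-Rgnef 1. Their ranges were -0.0888 to 0.0214 (Rpl5), -0.0563 to 0.0380 (Rpl7l1), -0.110 to 0.00449 (Rps12), -0.0792 to 0.0439 (Rps27a) and -0.256 to 0.00694 (Rpl23a).

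The labels do not say that the replicate numbers pair the samples. Deviations from the group means correlated by 0.32, -0.02 and 0.55 between libraries of the same number, so not every pair passed 0.1, and GFP-Rgnef 2 correlated best with knockout 1 (0.40). With the replicate block 1517 genes rose and 1253 fell over the genome, against 925 and 614 without it, and Rpl36a was called higher (limma adjusted p = 0.00534). Members with few reads, such as Rpl24 with 6 to 16 reads per library, are limited by depth.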
